A study of Homo sapiens with 12 samples.

Results

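Ferritin and cellular iron handling were followed through 10 genes: the ferritin chains FTL and FTH1, the uptake genes TFRC, SLC11A2 and STEAP3, the exporter SLC40A1, the iron regulatory proteins ACO1 and IREB2, the ferritin cargo receptor NCOA4 and the iron chaperone PCBP1. They were taken from the expression table by gene symbol, 10 of the 57152 genes with values, and the set was selected on the measured abundance of FTL, described as the most abundant transcript. The high level of FTL is therefore given as a description and is not tested. Its differences between groups rest on the same values. Their p-values, and the counts of calls that include FTL, are not independent support. All 10 passed the filter on low values, a mean of at least 1 TPM (transcript abundance relative to all transcripts, corrected for length) over the libraries, and belonged to the 13968 genes tested.

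The study measured RNA in A549 cells, an established human lung adenocarcinoma line, and in LB cells, whose source the labels also give as A549 and whose derivation they do not describe. There were 4 groups of 3 libraries. A549 DMSO and LB DMSO are the lines with 0.1% DMSO as vehicle. LB amiodarone is LB cells with 10 µM amiodarone, a cationic amphiphilic antiarrhythmic drug, for 24 h. LB amiodarone plus HPbCD is LB cells plated in 10 mg/ml hydroxypropyl-beta-cyclodextrin (HPbCD), a ring-shaped sugar that takes up cholesterol, and given the same amiodarone dose 24 h later. All 4 groups were grown in the same medium with serum. None of these 4 groups had HPbCD without amiodarone, or amiodarone on A549. An effect of HPbCD alone therefore cannot be told apart from a joint effect with amiodarone.

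Cells take up iron bound to transferrin through the transferrin receptor, reduce it in endosomes and pass it to the cytosol, where ferritin, a hollow shell of light and heavy chains, stores the surplus. Autophagy of ferritin in lysosomes releases the iron again, and ferroportin exports it. Iron regulatory proteins bind hairpins called iron-responsive elements (IREs) when iron is scarce: a hairpin at the start of a message blocks its translation, and hairpins near its end protect it from decay. Much of ferritin control is therefore on translation, which RNA levels do not show.

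Because these hairpins are the element that ties the ferritin, receptor and exporter messages together, the transcripts of the 10 genes were searched for the classical pattern. It is a C, any 5 bases, the loop CAGTGN, and 5 bases that pair with the first 5 by A-T, G-C or G-T, on the sense strand of GENCODE 29 protein-coding transcripts (GRCh38). Such a pattern was found in 4 of the 10 genes, in the 5′ UTR of 3 and the 3′ UTR of TFRC. For comparison, 36 of 19028 genes with a 5′ UTR (0.189%) and 132 of 19133 with a 3′ UTR (0.69%) hold one. Each window of 30 bases is written 5′ to 3′ in the sense of the transcript, as DNA, with the loop in capitals.
FTL 5′ UTR, chr19:48965335-48965364, plus strand: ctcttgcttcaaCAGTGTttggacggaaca
FTH1 5′ UTR, chr11:61967573-61967602, minus strand: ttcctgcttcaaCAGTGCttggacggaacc
SLC40A1 5′ UTR, chr2:189580660-189580689, minus strand: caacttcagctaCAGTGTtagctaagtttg
TFRC 3′ UTR, site 1, chr3:196050978-196051007, minus strand: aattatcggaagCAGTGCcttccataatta
TFRC 3′ UTR, site 2, chr3:196050574-196050603, minus strand: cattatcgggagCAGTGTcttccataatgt
TFRC 3′ UTR, site 3, chr3:196050509-196050538, minus strand: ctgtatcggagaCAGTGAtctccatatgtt
TFRC 3′ UTR, site 4, chr3:196050462-196050491, minus strand: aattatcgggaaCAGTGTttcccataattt
The FTL and FTH1 windows differed at 4 of 30 bases. The 4 TFRC matches lay within 546 bases of one 3′ UTR. A match is a sequence feature, not a measured binding site. In the other 6 genes, SLC11A2 among them, these letters were not in the transcripts searched. The search says nothing about other forms of the element in any of the 10 genes, those with a match included.

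Levels are in TPM, which is scaled by transcript length, so levels of different genes can be set side by side. Differences are on the log2(TPM + 1) scale, and adjusted p-values are from limma, fitted on all 13968 genes and adjusted by Benjamini-Hochberg within each comparison, with a threshold of 0.05. Group values are means ± SD with n = 3 libraries. The labels do not say that replicates were separate cultures, so the tests measure the spread between these libraries, which may be technical. TPM sums lay between 999449 and 999632 in every library, so the read depth behind a value is unknown, and TPM gives a share of RNA, in which less RNA per cell and fewer cells of a type cannot be told apart. LB amiodarone against LB DMSO, the combined treatment against LB amiodarone and the combined treatment against LB DMSO share libraries and are not independent of each other. LB DMSO against A549 DMSO uses the same LB DMSO libraries as the comparisons of either treatment with LB DMSO, so it is not independent of those.

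As a check of the material, the epithelial markers EPCAM, KRT8, KRT18 and KRT19 were all detected. Their summed level was 7222.98 to 7757.96 TPM in A549 DMSO and 2552.27 to 3206.72 TPM across the LB groups. EPCAM was low, with means of 9.46 TPM in A549 DMSO and 2.43, 1.91 and 1.64 TPM in the 3 LB groups. By limma all 4 were lower in LB DMSO than in A549 DMSO, past the adjusted threshold. The 6 alveolar type II markers summed to 22.28 to 22.68 TPM in A549 DMSO and 1165.83 to 1578.63 TPM in LB cells. The increase of this sum was in SFTPC, SFTPB, SFTPD and ABCA3. NAPSA had means of 2.50 TPM in A549 DMSO and 2.96, 1.76 and 1.94 TPM in the 3 LB groups. LAMP3 had 0.347, 0.317, 0.277 and 0.457 TPM in the same order. The 8 erythroid genes summed to 0.56 to 1.39 TPM over the 12 libraries, and 2 of them were at 0 in all. The 8 macrophage and monocyte genes summed to 17.24 to 20.33 TPM in A549 DMSO, 30.27 to 31.47 TPM in LB DMSO, 34.22 to 41.52 TPM with amiodarone and 83.74 to 87.65 TPM with HPbCD added. The increase of this sum in LB cells was in CD68, a lysosomal membrane protein, with means of 26.5, 35.8 and 83.3 TPM in the 3 LB groups, while CD14 had 2.51, 1.72 and 0.907 TPM. PTPRC, which all leukocytes express, did not exceed 0.01 TPM, and CD163 was at 0 in all 12. Fibroblast genes summed to 3.8 to 16.23 TPM and the hepatocyte genes ALB, TF, HAMP and TTR to 0 to 1.9 TPM. What part these differences had in the iron gene results was not tested.

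The ferritin levels themselves, on which the set was selected, are a description. FTL (chromosome 19, 48965301 to 48966878, plus strand), the light chain that helps form the mineral core, was the highest transcript in 10 of 12 libraries. In the other 2, replicates 1 and 2 of A549 DMSO, it was second to the mitochondrial gene MT-CO2, which stood at 15571.04 and 13668.43 TPM. FTH1 (chromosome 11, 61959718 to 61967660, minus strand), the heavy chain with the ferroxidase site, ranked 11 to 15 in A549 DMSO, 3 to 6 in LB DMSO and 2 to 3 in both amiodarone groups. Both chains together made up 1.68 to 2.03% of all TPM in A549 DMSO, 3.56 to 3.65% in LB DMSO, 4.18 to 4.37% with amiodarone and 4.3 to 4.37% with amiodarone plus HPbCD.

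FTL stood at 13479.66, 11904.60 and 14415.41 TPM in A549 DMSO and at 25867.64, 25777.25 and 26765.76 TPM in LB DMSO. With amiodarone it was 32885.17, 31257.82 and 31078.88 TPM, and with HPbCD added 31713.32, 32258.14 and 31881.43 TPM. Every LB DMSO library lay above every A549 library, every amiodarone library lay above every LB DMSO library, and the libraries of both amiodarone groups overlapped. Because the set was chosen on the level of FTL in these libraries, its p-values here are not independent evidence. FTL rose 1.97-fold from A549 to LB cells (log2 difference 0.98 ± 0.058 SE, adjusted p = 9.82e-08). It rose a further 1.21-fold with amiodarone (0.28 ± 0.058 SE, adjusted p = 0.0119). Adding HPbCD to amiodarone left no difference past the test (0.01, 95% interval −0.12 to 0.14, adjusted p = 0.957), and against LB DMSO the combined treatment was 1.22-fold higher (0.29, adjusted p = 0.00456). Without the filter on low values, both treatment calls were lost, at adjusted p = 0.18 for amiodarone and 0.107 for the combination.

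FTH1 followed the same order at a lower level. It was 5604.83, 4906.41 and 5832.58 TPM in A549 DMSO, 9717.66, 9947.62 and 9764.74 TPM in LB DMSO, 10787.46, 11169.57 and 10652.73 TPM with amiodarone, and 11292.35, 11256.13 and 11793.14 TPM with HPbCD added. No library of one group overlapped the next group in that order. The rise from A549 to LB cells was 1.80-fold (log2 difference 0.85 ± 0.055 SE, adjusted p = 2.14e-07). The amiodarone difference did not pass the test (0.15, 95% interval 0.03 to 0.27, adjusted p = 0.125), although it did at 0.0207 without A549 DMSO replicate 2, a library outside that comparison that enters the shared spread. The combined treatment was 1.17-fold above LB DMSO (0.22 ± 0.055 SE, adjusted p = 0.0151). That call was lost without the filter (adjusted p = 0.113), without LB DMSO replicate 1 (0.0527) and without replicate 3 of the combined treatment (0.0636).

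**Figure D1:**
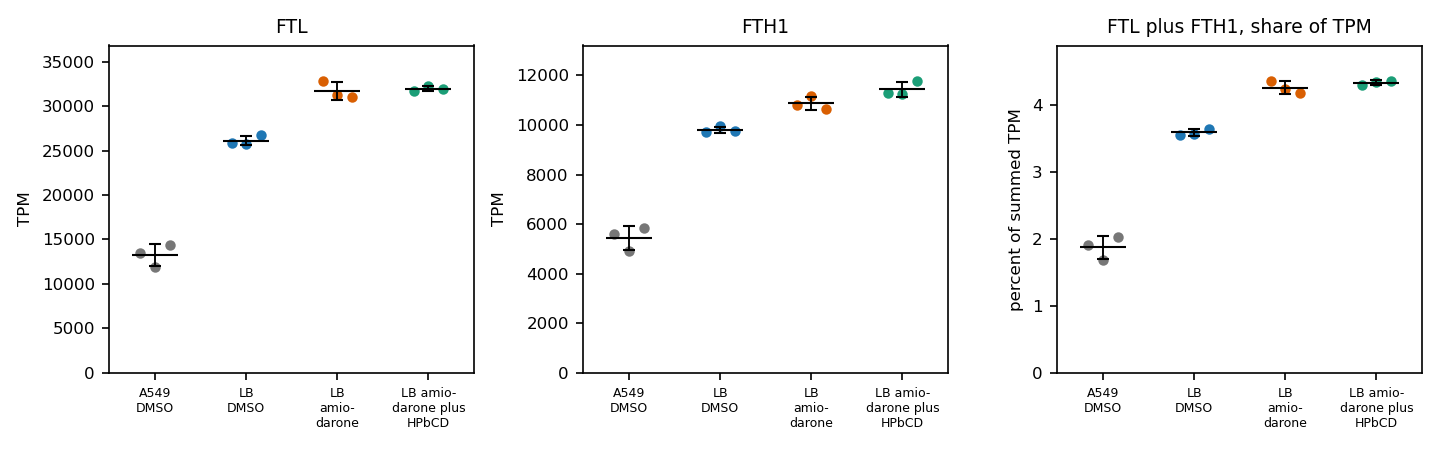
Levels of FTL and FTH1 in TPM and the share of summed TPM held by both, by group; points are libraries, the line is the mean and the bar the SD (n = 3). FTL rises from 11904.60 to 14415.41 TPM in A549 DMSO to at least 31078.88 TPM in both amiodarone groups, and the ferritin share goes from at most 2.03% to at least 4.18%.

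The chains did not stay in a fixed ratio. FTL over FTH1, in TPM, was 2.41, 2.43 and 2.47 in A549 DMSO and 2.66, 2.59 and 2.74 in LB DMSO. It was 3.05, 2.8 and 2.92 with amiodarone and 2.81, 2.87 and 2.7 with the combined treatment. The A549 ratios lay below all others, those of LB DMSO lay below all 3 of amiodarone alone, and the combined treatment overlapped both LB groups. These ratios are given as a description with no test.

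Processed copies of the ferritin genes are many, and RSEM divides reads that fit a gene and its copies by estimate, so their levels are uncertain. The table has 25 FTH1 pseudogenes, of which 17 were above 0 in some library and 6 had a mean of at least 1 TPM. Together they came to 0.486 to 0.737% of FTH1. The 16 FTL pseudogenes, 5 of them above 0, came to 0.0761 to 0.11% of FTL. The highest were FTH1P10, at group means of 21.1, 39.9, 38.5 and 37.8 TPM in the order A549 DMSO, LB DMSO, amiodarone and amiodarone plus HPbCD, and FTLP3, at 13.2, 21.0, 24.8 and 25.4 TPM. Both rose from A549 to LB cells (FTH1P10 log2 difference 0.89, adjusted p = 0.000321, FTLP3 0.63, adjusted p = 3.8e-05). Whether these reads come from the copies or from FTH1 and FTL cannot be told apart from the table. FTH1 also overlaps BEST1 on the opposite strand, at a mean of 0.89 TPM, and the library kit marks strand.

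The iron uptake genes did not move together. TFRC (chromosome 3, 196027183 to 196082189, minus strand) encodes the transferrin receptor, and its 3′ UTR holds the 4 pattern matches printed above. TFRC stood at 95.88, 96.25 and 91.60 TPM in A549 DMSO and 112.97, 111.20 and 124.05 TPM in LB DMSO. With amiodarone it was 136.53, 135.61 and 156.16 TPM and with HPbCD added 151.69, 141.53 and 158.89 TPM. LB DMSO lay above A549 and amiodarone above LB DMSO in every library, and both amiodarone groups overlapped. TFRC rose 1.23-fold from A549 to LB cells (log2 difference 0.29 ± 0.066 SE, adjusted p = 0.0047). It rose by the same 1.23-fold with amiodarone (0.29 ± 0.066 SE, adjusted p = 0.0172), a call lost without LB DMSO replicate 1 (0.0668), LB DMSO replicate 2 (0.0667) or LB amiodarone replicate 3 (0.0633). The combined treatment was 1.3-fold above LB DMSO (0.37 ± 0.066 SE, adjusted p = 0.00202) and not past the test against amiodarone (0.08, 95% interval −0.06 to 0.22, adjusted p = 0.589). TFRC and FTL thus both rose with amiodarone.

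STEAP3 (chromosome 2, 119223831 to 119265652, plus strand), the endosomal reductase that readies iron for transport, was the one member that fell in any of the 4 comparisons. It was 25.73, 27.01 and 25.49 TPM in A549 DMSO and 19.18, 19.37 and 20.37 TPM in LB DMSO, with no overlap (log2 difference −0.39 ± 0.057 SE, adjusted p = 0.000202). It then lay between 18.26 and 20.01 TPM in the 6 treated libraries, and none of the treatment comparisons passed (adjusted p = 0.443 to 0.864). SLC11A2 (chromosome 12, 50979401 to 51028566, minus strand), the divalent metal transporter DMT1, lay between 23.27 and 30.41 TPM in all 12 libraries. Its group means were 26.82 ± 1.94, 26.60 ± 3.24, 29.14 ± 1.28 and 25.56 ± 1.15 TPM, from A549 DMSO to the combined treatment. Its amiodarone libraries all lay above those of the combined treatment, without passing the test (log2 difference −0.18, adjusted p = 0.292).

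SLC40A1 (chromosome 2, 189560579 to 189583758, minus strand), ferroportin, the cellular iron exporter, had the lowest level of the 10. It was 2.78, 4.41 and 4.75 TPM in A549 DMSO, 2.76, 2.51 and 2.90 TPM in LB DMSO, 3.21, 3.54 and 2.93 TPM with amiodarone and 2.82, 3.89 and 3.36 TPM with HPbCD added. The first A549 library lay among the LB libraries, well below its other 2 replicates. LB DMSO against A549 did not pass the test (log2 difference −0.40, 95% interval −0.75 to −0.05, adjusted p = 0.077), and without A549 DMSO replicate 1 the difference was −0.58 and passed (adjusted p = 0.0077). The amiodarone (0.18, adjusted p = 0.557) and combined (0.22, adjusted p = 0.379) differences from LB DMSO did not pass.

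Of the iron regulatory proteins, which bind IREs, ACO1 responded to amiodarone and IREB2 had no difference past the test. ACO1 (chromosome 9, 32384603 to 32454769, plus strand), which is the cytosolic aconitase when it holds an iron-sulfur cluster and binds IREs when it does not, was 25.84, 26.87 and 27.39 TPM in A549 DMSO and 26.79, 28.21 and 28.65 TPM in LB DMSO. It was 36.90, 38.13 and 39.89 TPM with amiodarone and 32.14, 33.13 and 34.81 TPM with the combined treatment. The 3 LB groups did not overlap, with the combined treatment between the other 2. ACO1 rose 1.37-fold with amiodarone (log2 difference 0.44 ± 0.057 SE, adjusted p = 0.000455), the largest fitted difference of the 10 genes in that comparison. It was 1.20-fold higher with the combined treatment than in LB DMSO (0.25, adjusted p = 0.00936). The step down on adding HPbCD did not pass after adjustment (−0.19, 95% interval −0.32 to −0.07, adjusted p = 0.085). LB DMSO against A549 did not pass either (0.06, adjusted p = 0.456).

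IREB2 (chromosome 15, 78437431 to 78501456, plus strand), which is removed by proteasomal degradation when iron is ample, had group means of 42.14 ± 2.05, 38.92 ± 3.41, 37.70 ± 3.22 and 38.95 ± 1.64 TPM, from A549 DMSO to the combined treatment. Its libraries overlapped between neighbouring groups, and adjusted p-values lay between 0.298 and 0.983. The level of ACO1 over that of IREB2 was 0.586, 0.672 and 0.648 in A549 DMSO, 0.660, 0.806 and 0.696 in LB DMSO, 1.08, 1.0 and 0.980 with amiodarone and 0.792, 0.888 and 0.893 with HPbCD added. The amiodarone libraries were the highest and did not overlap any other group. As these genes act through protein, the ratio of their RNAs is only a description.

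**Figure D2:**
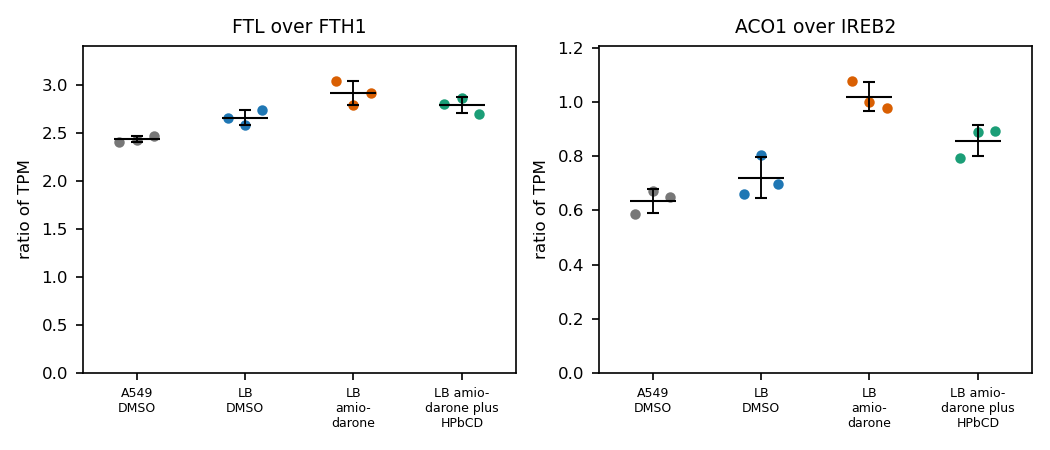
Ratio of FTL to FTH1 and of ACO1 to IREB2, in TPM, by group; points are libraries, the line is the mean and the bar the SD (n = 3). The amiodarone libraries have the highest ACO1 to IREB2 ratio, 0.980 to 1.08, against at most 0.893 elsewhere.

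NCOA4 (chromosome 10, 46005088 to 46030714, minus strand), the receptor that delivers ferritin to autophagosomes, was 50.52, 50.60 and 52.67 TPM in A549 DMSO and 54.77, 51.47 and 56.86 TPM in LB DMSO. It was 57.47, 60.67 and 65.58 TPM with amiodarone and 63.28, 61.91 and 61.45 TPM with the combined treatment. All 6 treated libraries lay above the 3 of LB DMSO. The amiodarone difference did not pass (log2 difference 0.17, adjusted p = 0.0948), and that of the combined treatment did (0.19, 1.14-fold, adjusted p = 0.0362). The latter call was lost without the filter (adjusted p = 0.0517), without the variance trend (0.0613), without LB DMSO replicate 1 (0.0815) or 2 (0.13), and without replicate 1 (0.112), 2 (0.0783) or 3 (0.076) of the combined treatment.

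PCBP1 (chromosome 2, 70087454 to 70089203, plus strand), an RNA-binding protein that also carries iron to ferritin, lay between 256.15 and 283.85 TPM in the 9 libraries without HPbCD. With amiodarone plus HPbCD it was 305.74, 296.02 and 299.15 TPM, above all of these. Against LB DMSO it rose 1.125-fold (log2 difference 0.17 ± 0.040 SE, adjusted p = 0.011), a call lost without LB DMSO replicate 2 (0.051). Against amiodarone alone it missed the threshold (0.13, 95% interval 0.05 to 0.22, adjusted p = 0.0876). An antisense gene at this locus, PCBP1-AS1, had a mean of 2.04 TPM.

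**Figure D3:**
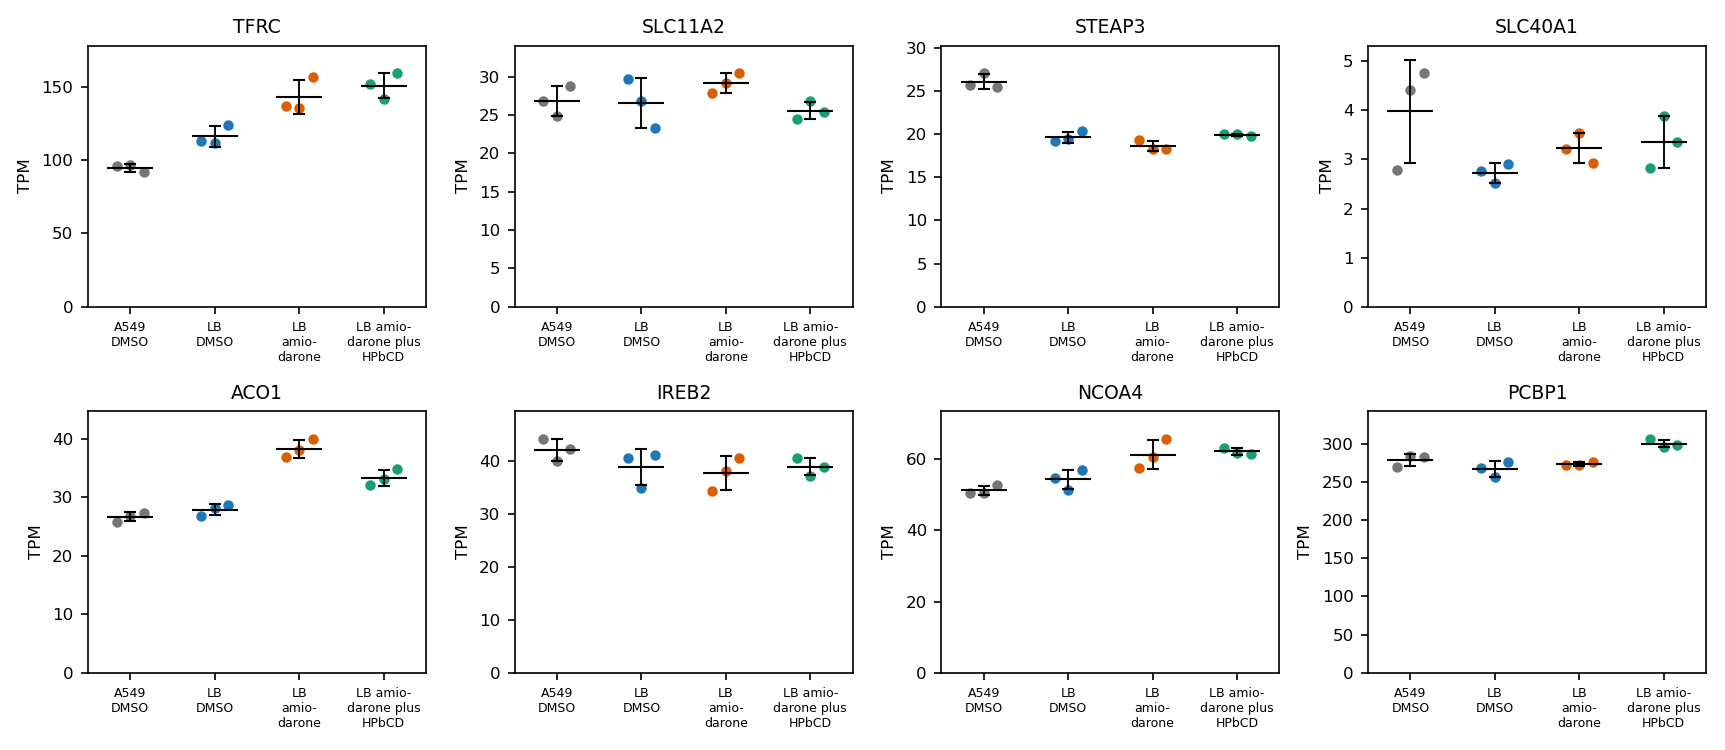
Levels in TPM of the 8 members other than ferritin by group; points are libraries, the line is the mean and the bar the SD (n = 3). TFRC is lowest in A549 DMSO and its amiodarone groups overlap, ACO1 is highest with amiodarone at 36.90 to 39.89 TPM, STEAP3 is highest in A549 DMSO and PCBP1 with HPbCD added.

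Within a library the levels of the 10 genes spanned from FTL down to SLC40A1, in nearly the same order in every group: FTL, FTH1, PCBP1, TFRC, NCOA4, IREB2, then ACO1, SLC11A2 and STEAP3, and last SLC40A1. In A549 DMSO the libraries of SLC11A2 (26.82 ± 1.94 TPM), ACO1 (26.70 ± 0.789) and STEAP3 (26.08 ± 0.817) overlapped, so their order is not set. In LB DMSO ACO1 and SLC11A2 overlapped and STEAP3 (19.64 ± 0.639) lay below both. With amiodarone ACO1 (38.31 ± 1.5) and IREB2 (37.70 ± 3.22) overlapped, and with HPbCD added IREB2 was again above ACO1 in all 3 libraries.

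Counted by comparison, the LB line differed from A549 in 4 of the 10 genes: FTL, FTH1 and TFRC rose and STEAP3 fell. Of all genes tested, 32.4% passed in that comparison, 14.2% as higher and 18.2% as lower, so the members' share is near the background. The median log2 difference of the members was 0.02, against −0.04 over all genes tested. The 4 calls held under every alternative setting and with any 1 library left out.

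Amiodarone raised 3 of the 10 genes, FTL, TFRC and ACO1, and lowered 0. Over all genes tested 8.62% passed, 4.9% higher and 3.72% lower. The median log2 difference of the members was 0.16, against −0.003 over all genes. Of the 3 calls, that of ACO1 held under every alternative.

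Adding HPbCD to amiodarone changed 0 of the 10 genes by limma after adjustment, while 2, ACO1 and PCBP1, had an unadjusted p under 0.05 (0.00503 and 0.00532). The share of all genes that passed was 4.07%, 2.71% higher and 1.36% lower. The members' median log2 difference was 0.04, against −0.01 over all genes. The differences of both genes had opposite signs, ACO1 lower and PCBP1 higher with HPbCD.

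Amiodarone plus HPbCD against LB DMSO gave the most calls. FTL, FTH1, TFRC, ACO1, NCOA4 and PCBP1 rose, 6 of 10, and 0 fell, with a median log2 difference of 0.21 against −0.02 over all genes. In the background 17.9% passed, 10.1% higher and 7.81% lower. The count was 3 without the filter on low values, when TFRC, ACO1 and PCBP1 remained past the test. As ratios of group means, the rises ran from 1.125-fold for PCBP1 to 1.3-fold for TFRC.

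**Figure D4:**
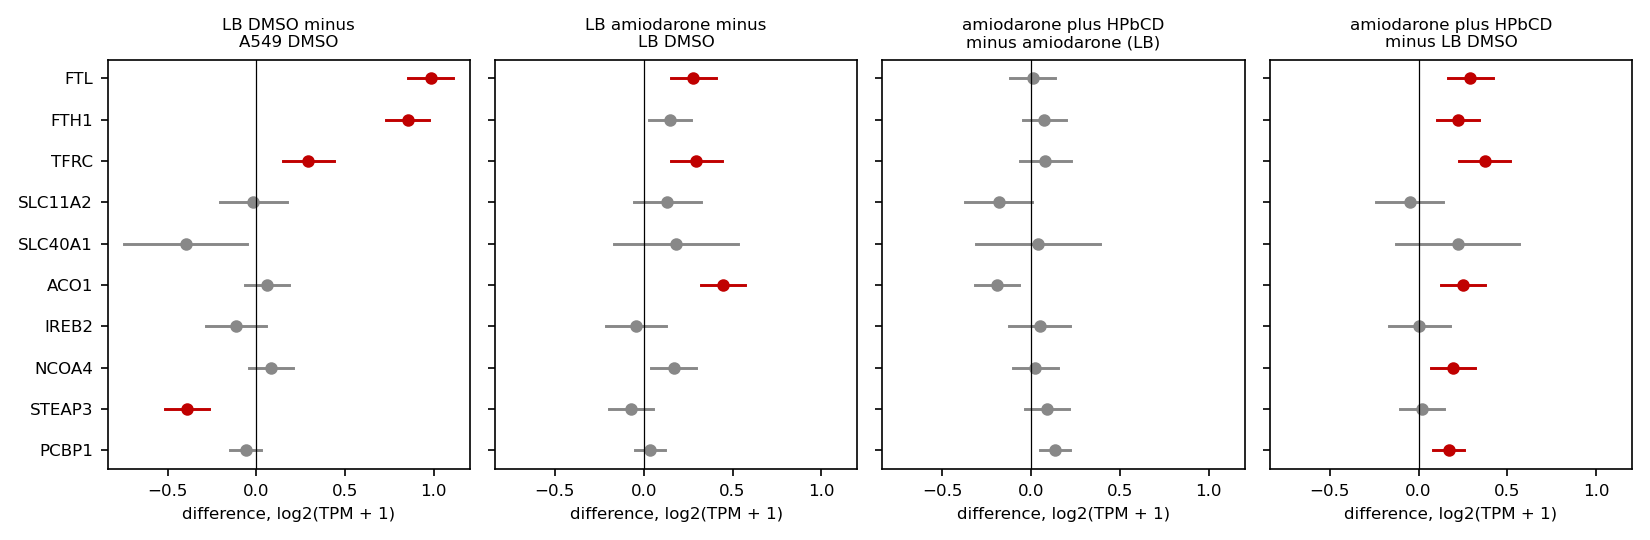
Fitted log2(TPM + 1) difference of each member with its 95% interval, in 4 panels, one for each comparison; red marks an adjusted p under 0.05 and grey all others. FTL and FTH1 stand apart at 0.98 and 0.85 between the lines, and treatment differences stay under 0.5.

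Other genes of iron metabolism were read from lists drawn from textbook knowledge, 102 genes in all, of which 92 were tested. Between the lines 22 of the 92 rose and 11 fell, where 32.4% of all genes passed, 14.2% higher and 18.2% lower. Amiodarone raised 8 and lowered 2, where 8.62% of all genes passed, 4.9% higher and 3.72% lower. Adding HPbCD raised 6 and lowered 1, where 4.07% of all genes passed, 2.71% higher and 1.36% lower. The combined treatment against LB DMSO raised 19 and lowered 6, where 17.9% of all genes passed, 10.1% higher and 7.81% lower. The counts of single lists below are small and are to be read against these shares. The medians of the 92 were 0.02, 0.06, −0.01 and 0.04 in that order. Levels in the next paragraphs are group means. The calls of genes named there held under every alternative unless a loss is stated, which does not extend to genes that are only counted.

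Between A549 and LB cells, heme breakdown and transport had 3 of 11 genes higher and 0 lower. HMOX1, heme oxygenase 1, which frees iron from heme, had means of 114 ± 20.5 TPM in A549 and 204 ± 13.7 TPM in LB cells, a rise of 0.86 ± 0.114 SE (adjusted p = 0.000106). BLVRB, a biliverdin reductase further down that path, had means of 365 ± 64.5 and 693 ± 26.3 TPM, a rise of 0.94 ± 0.095 SE (adjusted p = 1.11e-05). In heme synthesis 2 of 10 rose and 2 fell, and ALAS1, the first enzyme, went from 43.2 to 59.0 TPM (0.45, adjusted p = 0.000109).

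In export and the hepcidin axis 1 of 4 tested genes rose and 1 fell. CP, ceruloplasmin, a ferroxidase that works with ferroportin, rose from 10.8 ± 4.69 to 48.7 ± 1.15 TPM (2.16 ± 0.224 SE, adjusted p = 1.34e-05), while NEO1, neogenin, fell from 30.6 to 16.3 TPM (−0.87, adjusted p = 0.000123). Uptake and reduction had 2 of 9 higher and 2 lower. LCN2, lipocalin 2, which binds siderophore iron, fell from 8.49 to 0.41 TPM (−2.77, adjusted p = 1.68e-07), and the metal transporter SLC39A8 rose from 16.1 to 22 TPM (0.43, adjusted p = 0.00753). Hepcidin itself, HAMP, was at most 0.13 TPM in any library and was not tested.

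Among storage genes, chaperones and turnover 1 of 7 rose and 1 fell, the latter PCBP2, a second iron chaperone, from 497 to 424 TPM (−0.23, adjusted p = 0.00107). The mitochondrial ferritin FTMT was listed at 0 in all libraries. Mitochondrial iron import and iron-sulfur cluster genes had 5 of 21 higher and 0 lower, led by BOLA1 (36.3 to 46.2 TPM) and HSPA9 (357 to 445 TPM). Cytosolic iron-sulfur assembly had 1 of 9 higher and 5 lower, among them CIAO3 (28.6 to 23.4 TPM, −0.28, adjusted p = 0.0102) and NUBP2 (93.5 to 80.1 TPM, −0.22, adjusted p = 0.00716). Over all genes tested in this comparison, 14.2% passed as higher and 18.2% as lower. Whether these lists differ from that background was not tested.

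Other messages known to carry an IRE had 3 of 5 higher, among them EPAS1, which encodes the hypoxia factor HIF-2 alpha (57.1 to 76.5 TPM, 0.41, adjusted p = 0.000141), and CDC42BPA (13.7 to 17.1 TPM, 0.30, adjusted p = 0.0107). Of 7 regulators of ferritin genes 1 rose, MAFK. In the ferroptosis list, cell death by iron-dependent lipid peroxidation, 3 of 9 rose and 0 fell. SAT1, a polyamine acetyltransferase, went from 318 ± 66.1 to 889 ± 46.9 TPM (1.5, adjusted p = 1.48e-06) and GPX4, which reduces lipid peroxides, from 348 ± 24.1 to 522 ± 2.23 TPM (0.59, adjusted p = 3.44e-06).

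In the comparison of amiodarone with LB DMSO, EPAS1 was 73.57, 75.49 and 80.51 TPM in LB DMSO and 103.29, 105.87 and 100.62 TPM with the drug (0.43 ± 0.057 SE, adjusted p = 0.000644). CYBRD1, a ferric reductase, rose from 17.3 to 23.2 TPM (0.41, adjusted p = 0.00716), in a list of 9 uptake genes of which 2 rose. ACSL4, which loads membranes with the polyunsaturated lipids that ferroptosis needs, had the largest rise, from 12.35, 13.67 and 18.33 TPM to 30.43, 35.65 and 36.29 TPM (1.17 ± 0.127 SE, adjusted p = 0.000122), in a list with 2 of 9 higher.

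HMOX1 did not pass with amiodarone (204 to 266 TPM, adjusted p = 0.0597), although its libraries did not overlap. It passed with a filter at 5 TPM (0.0428), with only the 2 groups compared (0.0219) and without A549 DMSO replicate 2 (0.00573). The heme list had 2 of 11 higher, including the heme exporter FLVCR1 (14.5 to 22.2 TPM, 0.58, adjusted p = 0.0121). That call was lost when LB DMSO replicate 2, LB amiodarone replicate 2 or LB amiodarone replicate 3 was left out (range over libraries left out 0.00383 to 0.0541). Of 7 regulators, the small MAF protein MAFF rose (3.85 to 6.09 TPM, 0.55, adjusted p = 0.0104). KEAP1, which marks NRF2 for degradation, fell (64.9 to 53.2 TPM, −0.28, adjusted p = 0.0281), with a range of 0.0144 to 0.0969 and the call lost without any 1 LB DMSO library or LB amiodarone replicate 2 or 3, without the filter (0.0578) and without the variance trend (0.0531). In mitochondrial iron-sulfur genes 1 of 21 fell. Export, storage, heme synthesis and cytosolic assembly had 0 calls by limma, with 0 of 4, 1 of 7, 1 of 10 and 4 of 9 genes at an unadjusted p under 0.05.

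Adding HPbCD to amiodarone raised EPAS1 again, to 129.47, 140.53 and 121.70 TPM (0.33 ± 0.057 SE, adjusted p = 0.00649), which was 1 of 5 in the IRE list. MAFK, a partner of NRF2 and BACH1 on antioxidant elements, rose from 101 ± 4.89 to 159 ± 4.23 TPM (0.65 ± 0.082 SE, adjusted p = 0.000881), and MAFF from 6.09 to 9.34 TPM (0.54, adjusted p = 0.0194). MAFK had a mean of 123 ± 11.2 TPM in LB DMSO, against which the combined treatment was 0.38 higher (adjusted p = 0.00751). The call of MAFF was lost without LB amiodarone replicate 1 or 2 or replicate 1 or 3 of the combined treatment (range 0.0166 to 0.0911). SAT1 fell from 945 to 661 TPM (−0.52, adjusted p = 0.0336). That call was lost without any 1 library of either group or LB DMSO replicate 2 (range 0.000688 to 0.129). It was also lost without the filter (0.108), without the variance trend (0.0695) and with the replicate number as a block (0.0531). Storage had 1 of 7 higher, cytosolic assembly 1 of 9 and ferroptosis 1 of 9. Uptake, export, heme synthesis, heme breakdown and transport, and mitochondrial clusters had 0 calls by limma, with 2 of 9, 0 of 4, 0 of 10, 2 of 11 and 2 of 21 genes at an unadjusted p under 0.05.

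Against LB DMSO, the combined treatment raised 6 of 11 heme breakdown and transport genes and lowered 0. HMOX1 was 217.46, 205.23 and 190.17 TPM in LB DMSO and 340.94, 324.70 and 296.02 TPM with the combination (0.65 ± 0.114 SE, adjusted p = 0.00199). BLVRB rose from 693 to 903 TPM (0.38, adjusted p = 0.0155), lost without LB DMSO replicate 1 (0.058) or without the filter (0.052). The heme exporter ABCG2 rose from 21.6 to 29 TPM (0.41, adjusted p = 0.00965). EPAS1 (0.76, adjusted p = 2.27e-06), CYBRD1 (0.48, adjusted p = 0.00113), ACSL4 (1.15, adjusted p = 6.55e-05), MAFF (1.09, adjusted p = 3.7e-05) and the cytosolic iron chaperone partner GLRX3 (0.34, adjusted p = 0.00163) rose as well.

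By list, that comparison gave 2 of 9 higher in uptake, 2 of 7 higher and 1 lower in storage, and 0 calls by limma in export (0 of 4 at an unadjusted p under 0.05) and heme synthesis (4 of 10). Mitochondrial clusters had 1 of 21 higher and 2 lower, cytosolic assembly 1 of 9 lower, the IRE list 1 of 5 higher, the regulators 3 of 7 higher and 1 lower and ferroptosis 4 of 9 higher and 1 lower. NFE2L2, which encodes NRF2, an activator of ferritin transcription, passed in none of the 4 comparisons (adjusted p = 0.33 to 0.919). BACH1, a repressor of the same genes, passed in none in the main fit (0.0704 to 0.935). In the combined treatment against LB DMSO it passed without A549 DMSO replicate 3 (0.0499) and with the replicate number as a block (0.00601). With that block it also passed against amiodarone (0.0278).

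**Figure D5:**
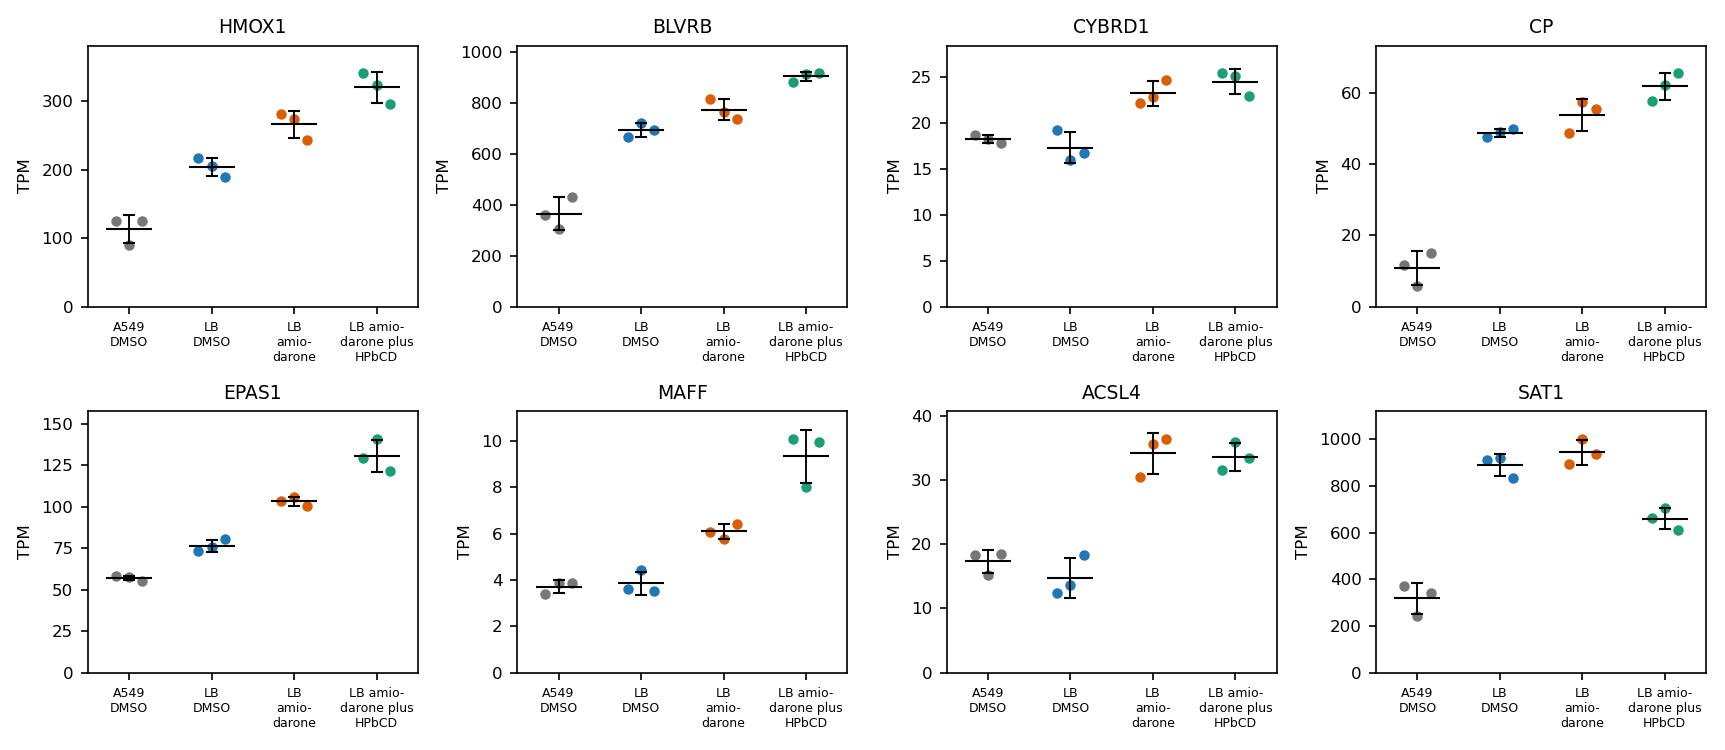
Levels in TPM of HMOX1, BLVRB, CYBRD1, CP, EPAS1, MAFF, ACSL4 and SAT1 by group; points are libraries, the line is the mean and the bar the SD (n = 3). EPAS1 steps up across the 4 groups, HMOX1 is 296.02 to 340.94 TPM with HPbCD added against 190.17 to 217.46 TPM in LB DMSO, ACSL4 is high in both amiodarone groups and SAT1 is lower with HPbCD added than with amiodarone alone.

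The genes whose pattern over the 12 libraries was most like that of a member were ranked by the root mean square difference of log2(TPM + 1) values, each centred on its own mean, among 9618 genes. FTL itself varied by 0.524 about its mean on this scale. Among the 5 closest to FTL were GLMP at 0.0708, IFNGR2 at 0.0902, GJA1 at 0.0918 and CHPF at 0.0922.

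Among the 5 closest to FTH1, which varied by 0.434, were LITAF at 0.0752, SPART at 0.0802, FUCA2 at 0.0888 and AMIGO2 at 0.0956, with FTL in place 10 at 0.104. TFRC, which varied by 0.272, was closest to TMEM181 and ATF4, both at 0.0675, ZC3HAV1L at 0.0720, SNX9 at 0.0727 and GLA at 0.0765. FTL held place 4081 for TFRC, as its difference between the lines is larger. SLC40A1 varied by 0.214, and the genes nearest to it, among them ATP6V0A2 at 0.117, TBC1D14 at 0.124, S100A13 at 0.128 and MAP3K13 at 0.131, were not much closer than that. All points share the same 12 libraries and their group differences.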

How the data were processed

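RNA from 12 libraries in 4 groups of 3, grouped by the labels' cell line and treatment, was measured as stranded mRNA libraries read as 100-bp pairs. The authors deposited 1 table of TPM values per gene symbol, made with STAR 2.7.3a, RSEM 1.3.1 and GRCh38 per the submitters' processing notes. Which annotation they used is not given in the sources. Of 57189 rows, 37 held no value, and 27884 were never above 0. There were 0 columns without a sample. TPM keeps no depth, so no interval from counts can be given, and RSEM divides shared reads by estimate.

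Values were analysed as log2(TPM + 1) using limma 3.58.1 (R 4.3.3) and its variance trend. The 13968 genes whose mean reached 1 TPM were tested. All 4 groups shared the fit (8 residual degrees of freedom, median residual SD 0.128). Tests were two-sided, with Benjamini-Hochberg adjustment within each comparison, and the method was tested on simulated data. The scale understates changes of low genes. Positions, transcripts and overlaps came from GENCODE 29.

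The members and lists were chosen with earlier results of these data known. Named were all members, up to 4 genes per iron list with the largest difference among those past the test that reached 5 TPM on average where higher, NFE2L2, KEAP1, BACH1, HMOX1, the ferritin pseudogenes and the 5 nearest genes to 4 members; some genes taken by the rule are not printed, as decided with their values in view. HAMP, FTMT, the marker genes and BEST1 and PCBP1-AS1 are printed as levels outside that rule. The iron lists were uptake and reduction, export and hepcidin axis, storage and chaperones, heme synthesis, heme breakdown and transport, mitochondrial and cytosolic iron-sulfur assembly, other IRE messages, ferritin regulators and ferroptosis. The settings varied were the pseudocount (0.1 or 5), the filter (none, or 5 TPM), median-of-ratios scaling, removal of FTL and FTH1, limma without trend, a fit of 2 groups at a time, a replicate block, and each library left out. The likeness of the nearest genes under other pseudocounts and scaling was an alternative added after seeing the data. Results of some genes the rule takes are not reported here.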

Additional observations from a re-analysis of the deposited data

How the results depend on the processing

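For the 10 iron genes in 4 comparisons, 828 alternative values reversed 0 calls: 810 stayed on the same side of the threshold, 16 lost a call and 2 gained one. The sign changed under some alternative in 8 results, 0 of them past the test. Of 13 calls, 7 held throughout. The number of iron genes past the test in amiodarone plus HPbCD against LB DMSO was 3 in place of 6 with no filter on low values. Of the 75 calls among the other iron genes, 68 were recomputed and 36 of these held under every alternative. Counts over all genes changed by more than 1.5 times only on leaving out a library. For amiodarone against LB DMSO, 1204 genes became 691, 750 and 628 without LB DMSO replicate 1, 2 and 3, and 685 and 718 without LB amiodarone replicate 2 and 3. For amiodarone plus HPbCD against amiodarone, 568 became 345, 330 and 302 without LB amiodarone replicate 1, 2 and 3, and 280, 340 and 300 without replicate 1, 2 and 3 of the combined treatment. These fits hold fewer samples. Median-of-ratios scaling moved the median of all genes by at most 0.0336 on the log2 scale.

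With the titles' replicate number as a replicate block, 4, 3, 0 and 6 iron genes passed in the 4 comparisons, as without it, and 4581, 1198, 606 and 2558 of all genes. With that block BACH1 passed in the combined treatment against LB DMSO (adjusted p = 0.00601) and against amiodarone (0.0278), and SAT1 no longer passed in the latter (0.0531). Of 18 pairs of same-numbered libraries only 2 correlated above 0.1 (r from −0.0649 to 0.212), so the numbers were not taken to pair the samples. TPM gives no depth, so counting error behind low levels such as those of SLC40A1 is unknown.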
